A study of Drosophila melanogaster with 3 samples.

Results

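The 54 protein-coding genes of Drosophila melanogaster whose symbol starts with RpL in the Ensembl annotation of the dm6 genome, mitochondrial mRpL genes left out, were taken from 13945 protein-coding genes on the 6 chromosome arms. They encode the proteins of the large (60S) subunit of the cytosolic ribosome and a few paralogs of these. All 54 were found and counted. Binding was read from chromatin immunoprecipitation followed by sequencing (ChIP-seq) of the zinc finger protein CG6808, named Zaf1, in 3 biological replicates of whole prepupae. The transgenic flies carried CG6808 with enhanced GFP (eGFP) fused to its C-terminus, the sexes were pooled, and the descriptions name an antibody to GFP, whereas the antibody field names CG6808. The age field reads 24 days, an uncommon figure at that stage. All replicates form 1 group, so no condition was compared, and no untagged sample was analysed here. The promoter that drives the fusion is not given in the labels, and region lists carry no expression by which the stage or tissue could be checked.

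Ribosomal protein genes are among the most strongly transcribed genes of a growing cell, and most of their products are needed in similar amounts. In Drosophila they start transcription at a TCT initiator, a pyrimidine-rich element in place of the usual initiator, and depend on TRF2, a relative of the TATA-binding protein. DREF, which binds the DNA replication-related element (DRE), and M1BP, which binds Motif 1, are known to act at these promoters, and Myc acts on ribosome production through E-boxes.

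Regions were deposited as 1 list per replicate, 1 list from the pooled replicates and 1 list kept by the irreproducible discovery rate (IDR). The IDR list held 8091 regions and each of the others 30000. A gene was called bound when a region had its summit no more than 500 bp from an annotated transcription start site (TSS) of that gene. Signal is the authors' height of a region over the control and was used only within a list, where rank 1 is the highest. Because the replicate lists have a fixed length, the 8091 highest regions of each were used as equal-length lists, called the strongest regions below. Sequencing depth is not known from these lists.

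The members with the strongest regions, and a few that carry a contrast, are shown first as sequence, so that most start sites can be read beside the values. The first 4 are the bound members of highest IDR signal among those whose sequence is printed. Each runs from 100 bases before the summit to 100 after it in the direction of the gene, ending no more than 50 bases past the nearest start, from the Release 6 genome. Capitals mark CTTT of a TCT initiator within 5 bp of an annotated start, the core CACTG or its reverse complement CAGTG, the DRE core ATCGATA, the Motif 1 core TCACACT and the Myc E-box CACGTG, on either strand for all but the first. The RpL30 window is chr2L:19009188-19009371, minus strand (gene FBgn0086710). That of RpL34b is chr3R:9401227-9401427, minus strand (gene FBgn0037686). That of RpL13A is chr3R:5624333-5624523, plus strand (gene FBgn0037351). That of RpL32 is chr3R:30046188-30046388, minus strand (gene FBgn0002626).
RpL30: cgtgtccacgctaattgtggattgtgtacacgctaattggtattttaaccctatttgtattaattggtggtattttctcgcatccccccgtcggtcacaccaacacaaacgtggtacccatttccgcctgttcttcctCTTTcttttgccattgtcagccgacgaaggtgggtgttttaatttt
RpL34b: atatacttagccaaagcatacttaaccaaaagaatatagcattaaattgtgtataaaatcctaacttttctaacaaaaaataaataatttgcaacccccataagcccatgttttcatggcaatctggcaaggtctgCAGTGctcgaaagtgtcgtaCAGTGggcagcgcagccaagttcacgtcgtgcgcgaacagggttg
RpL13A: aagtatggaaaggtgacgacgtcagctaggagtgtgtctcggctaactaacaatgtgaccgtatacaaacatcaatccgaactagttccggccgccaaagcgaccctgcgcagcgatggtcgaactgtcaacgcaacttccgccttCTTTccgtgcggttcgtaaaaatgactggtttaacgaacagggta
RpL32: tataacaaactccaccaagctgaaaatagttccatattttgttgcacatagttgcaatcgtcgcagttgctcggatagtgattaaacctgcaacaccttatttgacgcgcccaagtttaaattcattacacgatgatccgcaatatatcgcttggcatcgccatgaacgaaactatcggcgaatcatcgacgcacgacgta

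In RpL30 and RpL13A the only capitals are the initiator, and RpL34b holds the CAGTG core at 2 places. RpL32 holds none of the marked elements in its window. The windows of RpL32 and RpL34b end upstream of the start, and the TCT initiator called for each of these genes lies outside them. The next 3 windows were chosen after their values were seen, because they hold elements that RpL30 lacks. RpL34a, at chr3R:26059218-26059410, minus strand (gene FBgn0039406), has a DRE at its summit. RpL7, at chr2L:10200938-10201053, plus strand (gene FBgn0005593), holds Motif 1, an E-box and the CACTG core. RpLP1, at chr2L:419822-420001, plus strand (gene FBgn0002593), has Motif 1 overlapping the CACTG core, followed by the initiator.
RpL34a: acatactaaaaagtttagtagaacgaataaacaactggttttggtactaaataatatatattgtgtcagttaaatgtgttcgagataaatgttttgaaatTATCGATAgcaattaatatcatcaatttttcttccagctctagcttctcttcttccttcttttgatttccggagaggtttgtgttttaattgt
RpL7: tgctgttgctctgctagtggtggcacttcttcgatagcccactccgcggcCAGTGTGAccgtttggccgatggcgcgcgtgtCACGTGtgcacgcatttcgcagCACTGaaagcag
RpLP1: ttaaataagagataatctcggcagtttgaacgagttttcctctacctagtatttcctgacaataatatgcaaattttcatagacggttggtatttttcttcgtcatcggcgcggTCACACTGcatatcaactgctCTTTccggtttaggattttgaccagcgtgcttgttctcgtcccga

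As a contrast, 2 members without a region at the start in any list are shown from 250 bases before the 5'-most start to 50 bases from it. They were picked after their values were seen from 4 printable members in that state, the others being RpL10Aa and RpL24-like. RpL9 is shown at chr2L:11004140-11004439, minus strand (gene FBgn0015756), and RpL36A at chr2L:8042860-8043159, minus strand (gene FBgn0031980). RpL9 has a TCT initiator, and RpL36A has the DRE core at 2 places and the CAGTG core at 1.
RpL9: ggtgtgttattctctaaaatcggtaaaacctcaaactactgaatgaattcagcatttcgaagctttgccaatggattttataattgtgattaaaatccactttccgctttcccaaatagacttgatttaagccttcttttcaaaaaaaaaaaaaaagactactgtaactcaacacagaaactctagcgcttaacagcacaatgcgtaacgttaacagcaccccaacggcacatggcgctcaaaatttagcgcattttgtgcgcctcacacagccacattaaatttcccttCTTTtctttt
RpL36A: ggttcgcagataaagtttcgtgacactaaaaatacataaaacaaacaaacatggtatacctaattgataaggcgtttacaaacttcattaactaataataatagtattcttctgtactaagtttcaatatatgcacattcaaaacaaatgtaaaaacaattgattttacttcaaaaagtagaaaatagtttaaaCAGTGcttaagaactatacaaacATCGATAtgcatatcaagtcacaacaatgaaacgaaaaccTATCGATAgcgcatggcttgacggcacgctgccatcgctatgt

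Zaf1 regions were found at the starts of most RpL genes. In the IDR list 35 of 54 were bound (64.8%, 95% Wilson interval 51.5 to 76.2%). The interval treats genes as independent draws, although all 54 members were counted, and does not measure the spread between replicates. Among all protein-coding genes 18.1% were bound, and among the 13891 others 17.9%. The 35 bound members had 35 distinct strongest summits. The small-subunit genes (symbols starting RpS) stood at 25 of 38, or 65.8%.

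The share differed between the lists but was above that of other genes in each. In the pooled list 41 members were bound (75.9%), where 32.2% of all protein-coding genes were. In the strongest regions of replicate 1, 43 were bound (79.6%) against 20.7% of all genes. Replicate 2 had 29 (53.7%) against 17.7%, and replicate 3 had 31 (57.4%) against 16.5%. The mean was 34.3 ± 7.57 members (SD, n = 3), or 63.6% ± 14.0 of the members, beside 18.1% ± 2.15 of other genes. In the full lists, replicate 1 had 48 members bound (88.9%) against 38.2% of all genes, replicate 2 had 38 (70.4%) against 33.5%, and replicate 3 had 34 (63.0%) against 31.0%. Replicate 1 therefore held the most RpL genes in both kinds of list. When an IDR summit also had to be matched within 100 bp in the strongest regions of both replicates 2 and 3, with replicate 1 not consulted, 22 members remained. The same requirement in all 3 replicates also left 22, in replicates 1 and 3 it left 27, and in replicates 1 and 2 it left 26. The IDR list itself was not remade without a replicate.

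**Figure D1:**
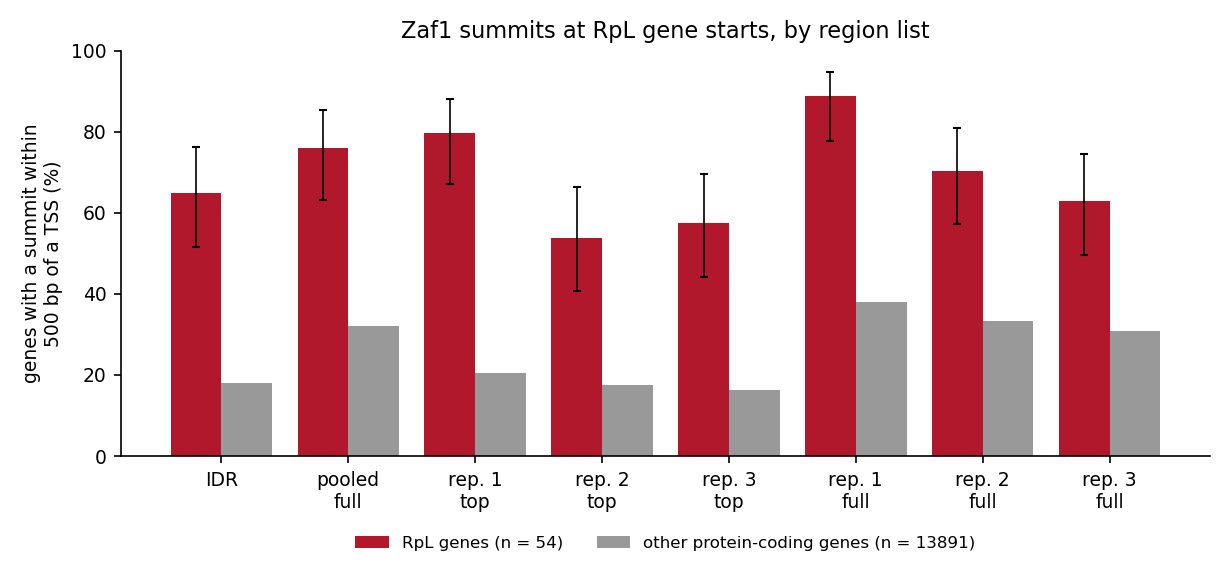
Percent of RpL genes (red, n = 54) and of other protein-coding genes (grey, n = 13891) with a summit within 500 bp of a TSS in each region list. Top, the 8091 highest regions of a replicate. Full, all 30000. Error bars, 95% Wilson intervals that treat genes as independent draws and do not measure the spread between replicates. The red bars run from 53.7% to 88.9% and the grey bars from 16.3% to 38.0%.

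By place in the ribosome, bound and unbound members were as follows. Of 7 proteins that line the end of the peptide exit tunnel, RpL17, RpL19, RpL31, RpL35 and RpL39 were bound in the IDR list, and RpL23A and RpL26 were not. Of the stalk, which recruits the translation factors, RpLP0, RpLP1 and RpLP2 were all bound. RpL3, RpL8 and RpL10, close to the peptidyl transferase centre or its substrates, were bound as well. RpL5 and RpL11, which join the ribosome together with 5S rRNA, were both outside the IDR list. These groupings were made after the values were seen. They are small, and over all members 64.8% were bound in the IDR list, over all protein-coding genes 18.1%.

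Agreement between the replicates was uneven. Of the 35 bound members, 23 were also bound in the strongest regions of all 3 replicates, 9 in those of 2 and 3 (RpL35A, RpL7 and RpLP2) in those of 1. Counting RpL11, which was outside the IDR list, 24 of 54 members (44.4%) were bound in all 3, beside 12.6% of other genes. At least 1 replicate had 45 members (83.3%, other genes 24.7%). No region in any list was at the start of 6 members (11.1%, other genes 51.6%). The strongest IDR summit itself was matched within 100 bp in every replicate for 22 of 35 bound members (62.9%), near the 61.6% of other bound genes.

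Signal was moderate. The strongest IDR signal had a median of 404.3 over the 35 bound members (lowest 163.3, highest 1452.4) and 335.0 over 2484 other bound genes, whose highest value was 23404.8. With the list split by rank into 4 equal sections, 11 members fell in the strongest (31.4%, other genes 33.7%), 15 in the next (42.9%, other genes 24.8%), 6 in the one after (17.1%, other genes 22.5%) and 3 in the weakest (8.57%, other genes 19.0%). The share in the strongest section was near that of other bound genes, and the share in the next one was higher. Replicate 1 gave 1.29 as the ratio of the median signal of bound members to that of other bound genes, replicate 2 gave 1.43 and replicate 3 gave 0.995. The mean ratio was 1.24 ± 0.224 (SD, n = 3), and replicate 3 showed no excess. In whole animals, binding in more cells and stronger binding per cell cannot be told apart.

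RpL30, whose yeast counterpart binds its own transcript, had the highest signal of the members. Its region had an IDR signal of 1452 and rank 350, and signals of 771 in replicate 1, 342 in replicate 2 and 332 in replicate 3, at ranks 349, 366 and 379. Its rank was thus nearly the same in each list. RpL34b followed with an IDR signal of 695 (rank 1333) and replicate signals of 362, 188 and 139. RpL13A, whose mammalian counterpart is known for translational control outside the ribosome, had 690 (rank 1344), with 309, 196 and 151 in the replicates. RpL32, a gene much used as a reference transcript in fly work, had 605 (rank 1601) and 295, 146 and 156. RpL30 stood apart from the other members, while RpL34b and RpL13A were close to each other in the IDR list and changed order in replicates 2 and 3.

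Of the other members among the 10 highest, RpL7 had an IDR signal of 594 (rank 1646) that rested on replicate 1. Its signal was 350 there, and no region at its start was listed in replicates 2 and 3. RpL34a had 588 (rank 1669), and 354, 116 and 106 in the replicates. RpL31, a tunnel-exit protein, had 586 (rank 1683), and 302, 194 and 94.2. RpL7 was the only one of the 10 with a single replicate behind it. RpL13 had 563 (rank 1781), with 289 and 144 in replicates 1 and 2 and no region in replicate 3. RpL24 had 558 (rank 1794), and 313, 114 and 130. RpL14 had 522 (rank 1946), and 304, 109 and 109. Over the 24 members bound in the strongest regions of all replicates, the ratio of a gene's largest to its smallest replicate rank had a median of 1.52, so neighbours in this order were not separated beyond the spread of the replicates.

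The weakest bound members lay near the end of the IDR list. RpLP2, a stalk protein, had an IDR signal of 163 (rank 7518), just inside the list's lowest signal of 152.4. Its replicate signals were 125, 31.4 and 14.6, and only the first was among the strongest regions. RpL10, which sits near the catalytic site, had 181 (rank 6739), and 100, 28.2 and 66.2. RpL37-1 had 185 (rank 6536), and 92.3, 27.9 and 50.9. RpL40, made as a fusion to ubiquitin, lay just outside at a pooled signal of 151 (rank 8146), with replicate signals of 81.0, 24.1 and 44.3. Its summits were downstream of the start, at 146 bp in the pooled list and at 126, 189 and 101 bp in the replicates.

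**Figure D2:**
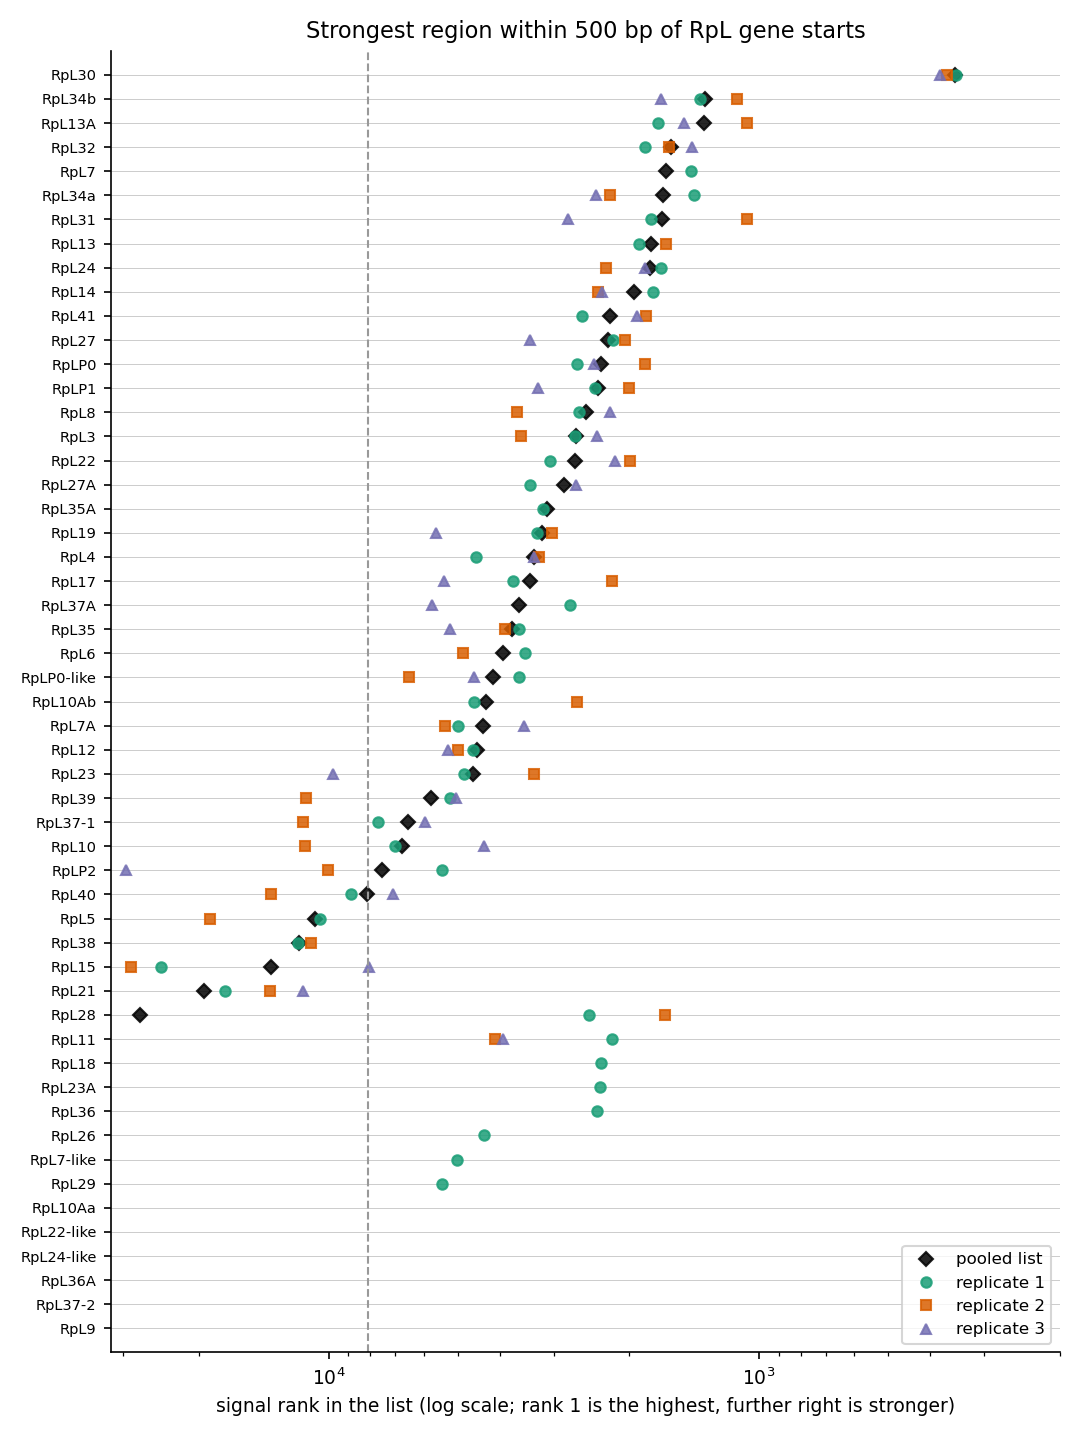
Rank of the strongest region within 500 bp of the start of the RpL genes, 1 of them not drawn, in the pooled list (black) and in the full list of each replicate (colours), on a reversed log axis; the dashed line is the length of the IDR list, rank 8091, and a missing symbol means that no region was listed. RpL30 stands apart at ranks 349 to 379, RpL40 has its pooled symbol at 8146 just left of the line, 7 genes have replicate symbols but no black symbol, and 6 have no symbol.

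The 19 members outside the IDR list fell into several states. In 6 (RpL5, RpL15, RpL21, RpL28, RpL38 and RpL40) the pooled list had a region at the start. That was 11.1% of the members, near the 14.2% of other genes in this state. In 13 the pooled list had none (24.1%, other genes 67.9%). Of these 13, RpL18, RpL23A, RpL26, RpL29, RpL36 and RpL7-like were bound only in replicate 1, and RpL11 in all 3 replicates. The remaining RpL9, RpL36A, RpL10Aa, RpL22-like, RpL24-like and RpL37-2 had no region in any list. No unbound member had an IDR summit just beyond the 500-bp window, as the nearest was 2347 bp away, at RpL26.

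Regions in replicate 1 without a counterpart in the pooled list were not limited to these genes. Of the members bound in the strongest regions of replicate 1, 7 of 43 (16.3%) lacked a pooled region, and 348 of 2850 other genes (12.2%) did. Replicate 2 had 1 such member of 29 (3.45%, other genes 8.09%) and replicate 3 had 1 of 31 (3.23%, other genes 4.94%). RpL18 and RpL23A had signals of 249 and 247 in replicate 1, at ranks 2323 and 2344, above the median of 222.2 over the members bound there.

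RpL11 was the single member bound in all 3 replicates with no pooled region. Its signals were 260, 68.8 and 72.2, and its summits lay 23, 25 and 25 bp upstream of the start. The 3 positions are within 2 bp of each other, and the nearest pooled summit was 3514 bp away. Among other genes 17 of 1745 (0.974%) that were bound in all 3 replicates lacked a pooled region. The sources used here do not say how a region of every replicate can be missing from the pooled list.

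RpL28 was likewise strong in 2 replicates, with signals of 236 and 144 and none in replicate 3. Its pooled region was weak (42.5, rank 27426) and lay 255 bp upstream, away from the replicate summits at 36 and 45 bp upstream.

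RpL5, RpL15, RpL21 and RpL38 shared a different state, with weak pooled regions on the start. RpL5, RpL15 and RpL38 are known as genes that lie in heterochromatin. RpL5 had a pooled signal of 115.3 (rank 10773) 5 bp downstream of the start, and replicate signals of 69.1 and 18.4, with none in replicate 3. RpL38 had 105 (rank 11699) 33 bp upstream, and 61.5 and 29.0, with none in replicate 3. RpL15 had 90.2 (rank 13585) 8 bp upstream, and 26.7, 12.9 and 39.9. RpL21 had 61.7 (rank 19501) 10 bp downstream, and 40.4, 24.1 and 30.2.

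In the assembly these 4 genes are the members farthest from any IDR summit. The nearest one was 3686503 bp from RpL15, 402509 bp from RpL5, 307035 bp from RpL38 and 113692 bp from RpL21, while for no other unbound member was it more than 52677 bp away. RpL15 lies 0.843 Mb from the centromere-side end of its arm in the assembly, RpL5 0.977 Mb, RpL21 1.27 Mb and RpL38 4.52 Mb. RpL15, RpL5 and RpL21 are the 3 members nearest such an end, and RpL30, which is bound, lies 4.50 Mb from the end of its own arm. The part of this position in the weak signal was not tested. Over 100000 bp from any IDR summit, 4 of 4 members had a pooled region at the start, as did 35 of 254 other genes (13.8%).

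Summits at bound members lay closer to the start than those at other bound genes. The strongest IDR summit was within 50 bp of a TSS in 27 of 35 members (77.1%) and in 371 of 2484 other bound genes (14.9%). Within 100 bp the shares were 88.6% and 29.1%, and within 250 bp all 35 members and 70.1%. The median offset was -10.0 bp in the members (-198 to 69 bp, negative being upstream) and -127 bp in other genes. Measured from the 5'-most start of each gene, the members' median changed sign to 3.00 bp. The median distance regardless of direction was 21.0 bp and 170 bp. Upstream of the start lay 23 summits, downstream 10, and on the annotated base 2 (RpL31 and RpL7A).

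The same held in each replicate taken on its own. In the strongest regions of replicate 1, 33 of 43 members (76.7%) had the strongest summit within 50 bp of a TSS against 15.6% of other genes. Replicate 2 had 17 of 29 (58.6%) against 13.0%, and replicate 3 had 20 of 31 (64.5%) against 13.0%. The means were 66.6% ± 9.23 in members and 13.9% ± 1.5 in other genes (SD, n = 3). The ranges over replicates did not overlap. The mean of the median distances was 34.3 ± 3.51 bp in members and 168.7 ± 9.29 bp in other genes (SD, n = 3).

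**Figure D3:**
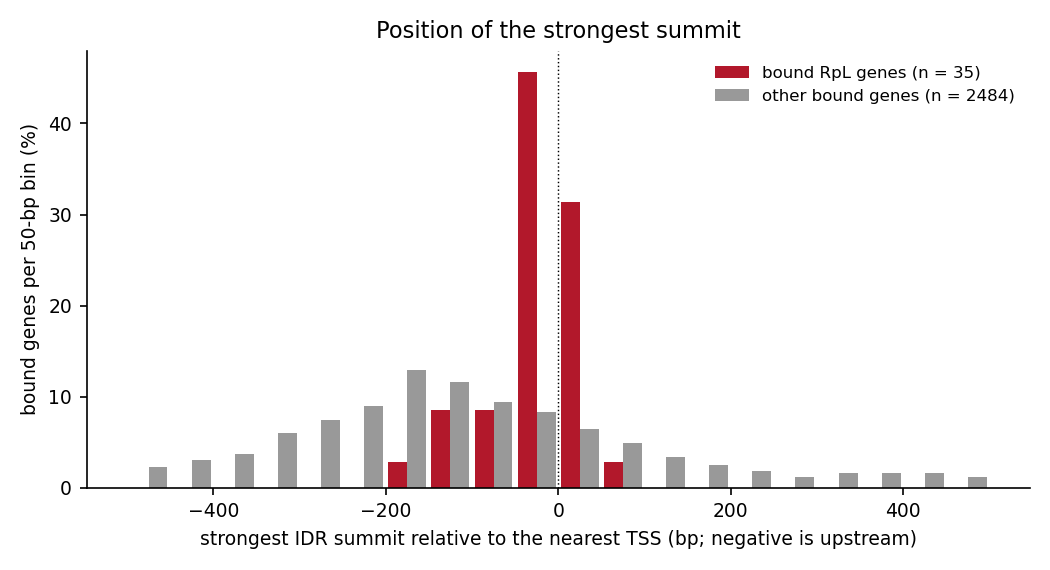
Position of the strongest IDR summit relative to the nearest TSS, as percent of bound RpL genes (red, n = 35) and other bound genes (grey, n = 2484) per 50-bp bin; negative is upstream. The red bars stand mainly in the bins on either side of the start, 27 of 35 genes within 50 bp, while the grey bars are broad with a median of -127 bp.

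By annotation, 16 of the 35 summits lay in the gene's own 5' UTR, 17 outside the gene, 1 in an intron (RpL35) and 1 in a coding exon (RpL6). RpL30's summit is in its 5' UTR by the longer transcript, 34 bp upstream of its nearer start. The farthest upstream was that of RpL23, at -198 bp, and in the replicates it was at -204, -260 and -194 bp. RpL32 was at -127 bp, with replicates at -130, -164 and -148 bp. RpL10Ab was at -110 bp, with replicates at -45 and -151 bp and none in replicate 3, and RpL34b at -101 bp, with replicates at -116, -120 and -89 bp. The strongest summits of these 4 genes were upstream in every replicate that listed one. RpL23 also had weaker regions nearer the start, at 2 bp in the pooled list (signal 146.5, outside the IDR list), at 62 bp in replicate 1 and at 5 bp in replicate 2.

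Over the 24 members bound in all 3 replicates, the replicate offsets of a gene, each from its nearest start, spanned a median of 33.5 bp. The span ran from 2 bp (RpL11, RpL24 and RpLP0-like) to 167 bp (RpL35). In genes with several starts the nearest one can differ between replicates, so this is not the span of the summits themselves. The RpL24 summits, for example, were at 13395106, 13395105 and 13395143. In 17 of the 24 the span of offsets was within 50 bp. Other genes bound in all 3 had a median span of offsets of 42.0 bp, with 971 of 1745 within 50 bp. For most members the replicates thus gave similar offsets, not always from the same start, and placed the summit at different bases.

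Among other classes of bound gene, the small-subunit genes had the same placement. Their strongest summit was within 50 bp of a TSS in 21 of 25 (84.0%). Genes of the mitochondrial ribosome did not share it, with 2 of 14 (14.3%), although their median IDR signal was 806.9. A TCT initiator was called here from the letters CTTT within 5 bp of a start, which unrelated short matches can also give. Outside the cytosolic ribosomal genes, 46 of 290 bound genes so called (15.9%) and 304 of 2169 others (14.0%) had a summit within 50 bp of a start. Among the RpL genes it was 17 of 21 (81.0%) with the CTTT call and 10 of 14 (71.4%) without. The part of the initiator in the placement was not tested. Annotation gave similar values, as genes with 1 TSS had 16 of 20 (80%) among RpL and 11.9% among the others, and other genes of up to 5 kb had 14.3%.

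**Figure D4:**
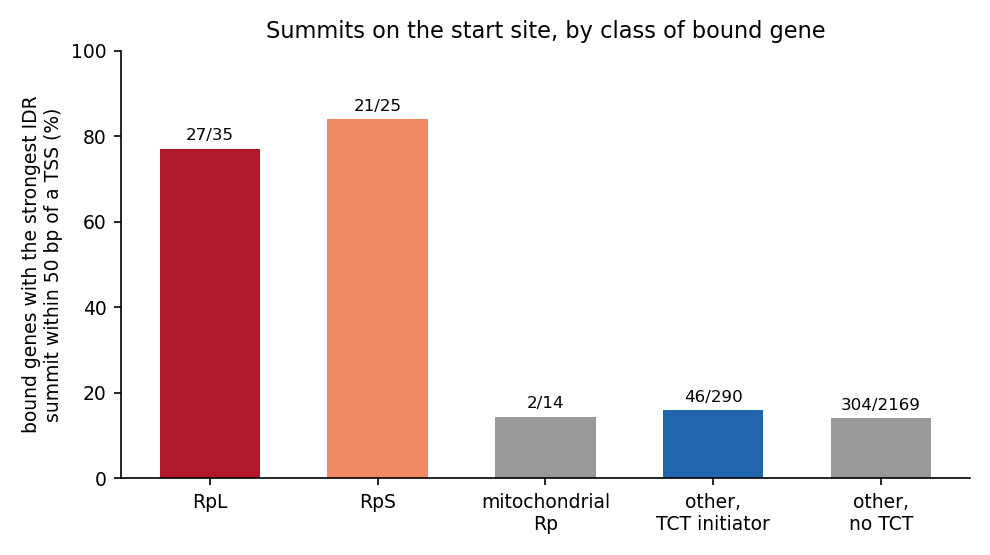
Percent of bound genes whose strongest IDR summit lies within 50 bp of a TSS, by class of gene, with counts above the bars; the last 2 classes exclude cytosolic ribosomal protein genes. RpL (77.1%) and RpS (84.0%) stand above the other 3 classes, which lie between 14.0% and 15.9%.

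Several members share a summit window with a neighbour. In 17 of 35 (48.6%) the strongest summit was also within 500 bp of another protein-coding gene's start, compared with 37.0% of other bound genes. The RpL start was the nearer in all but 1 of the 35, RpLP0-like, whose summit was 8 bp from the start of 14-3-3zeta and 95 bp from its own. In other bound genes a neighbour's start was nearer in 17.8%. RpL13 shares its summit with Dref, the gene of the DRE-binding factor, at 5 bp from RpL13 and 89 bp from Dref. RpL7 shares one with Ripalpha (34 and 64 bp) and RpL14 one with Nelf-E (14 and 113 bp). Starts of noncoding genes were nearer than the RpL start for RpL22 and RpL37A.

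More than 1 IDR summit within 500 bp was found at 3 of 35 members (8.57%), against 20.2% of other bound genes. Among them, RpLP0 had a second one of signal 207 at -482 bp and RpLP1 one of 154 at 177 bp.

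The stalk genes and their relative were all bound, at different strengths. RpLP0, the base of the stalk, had an IDR signal of 454 (rank 2322) at -5 bp, and 225, 133 and 105 in the replicates. RpLP1 had 448 (rank 2363) at -30 bp, and 243, 126 and 83.5. RpLP0-like, which corresponds to the yeast assembly factor Mrt4, had 280 (rank 4142) at -95 bp, and 175, 45.7 and 63.1. With RpLP2 at 163, the partner of RpLP1 in the stalk had the lowest signal of the 4.

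Of 7 pairs of related genes, 2 had both copies in the IDR list and 5 had 1. Over all members 64.8% were bound in that list and over all protein-coding genes 18.1%, and the pairs are few. RpLP0 and RpLP0-like, given above, were both bound. RpL34a and RpL34b were both bound, with signals of 588 and 695. RpL7 was bound and RpL7-like, which corresponds to the yeast assembly factor Rlp7, was listed only in replicate 1, at a signal of 134 and 349 bp upstream. RpL24 was bound, and RpL24-like, which corresponds to the yeast assembly factor Rlp24, had no region in any list. RpL10Ab (270, rank 4307, with replicate signals of 143 and 98.8 and no region in replicate 3) was bound and RpL10Aa had none. RpL22 (404, rank 2677, with 199, 126 and 114.9) was bound and RpL22-like had none. RpL37-1 (185) was bound and RpL37-2 had none. Of the 5 copies outside the IDR list, RpL7-like was thus the one with a region in any list. How reads that match more than 1 copy were placed is not known here, so values of near-identical copies are uncertain.

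Members inside and outside the IDR list, called bound and unbound here, had similar promoters by the elements counted. Only 6 of the 19 unbound members had no region in any list, so the comparison is mostly across a list cutoff. Of those 6, RpL9 and RpL37-2 had a TCT initiator by the CTTT call, and RpL36A, RpL10Aa, RpL22-like and RpL24-like had not. A TCT initiator was at a start of 21 of 35 bound (60%) and 12 of 19 unbound members (63.2%), and of 8.07% of all protein-coding genes. Promoters (250 bp before to 50 bp after the 5'-most start) held the DRE core in 40.0% of bound and 36.8% of unbound members, and in 18.2% of all genes. The CACTG core was in 54.3%, 52.6% and 46.2%, the Myc E-box in 14.3%, 15.8% and 4.20%, and TATAAA in 42.9%, 47.4% and 45.8%. A head-to-head neighbour, with a start on the other strand within 1000 bp upstream, was present for 65.7%, 57.9% and 35.2%. The TCT initiator, the DRE, the E-box and the head-to-head arrangement were thus more frequent in RpL genes than in all genes, with similar shares in bound and unbound members.

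Motif 1 was the one element found on the bound side alone. Its letters GGTCACACT were in 6 of 35 bound promoters (17.1%: RpL19, RpL27, RpL27A, RpL37A, RpL7 and RpLP1), in 0 of 19 unbound ones and in 6.05% of all genes. The shorter core TCACACT, which the longer form contains and which overlaps CACTG where a G follows, added RpL14, for 7 of 35 and 0 of 19. These counts are small, and most bound members had neither form. The letters GAGAGAG of the GAGA factor were in none of the 54 promoters and in 5.87% of all genes.

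**Figure D5:**
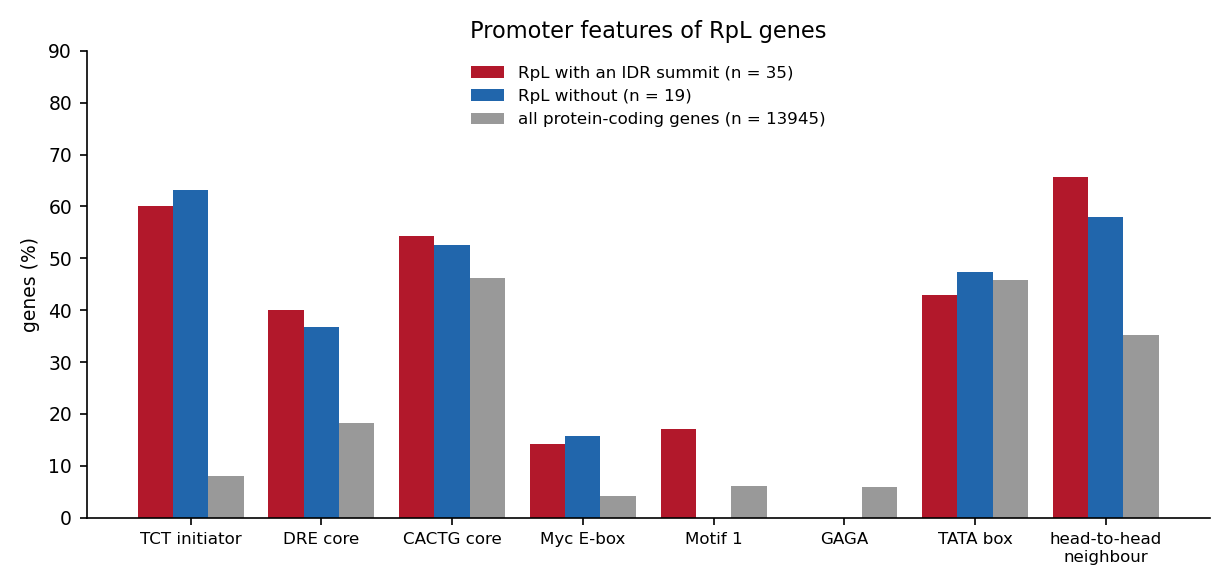
Percent of RpL genes with an IDR summit (red, n = 35), RpL genes without one (blue, n = 19) and all protein-coding genes (grey, n = 13945) with each promoter element or a head-to-head neighbour. Most of the blue group had a region in another list. Red and blue bars are within 8 percentage points of each other except for Motif 1 (17.1% and 0%), and GAGA is at 0 in both.

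The share of bound genes was high among RpL genes in every stratum of these features. With a TCT initiator 63.6% of RpL genes and 28.1% of other genes were bound, and without one 66.7% and 17.0%. With a head-to-head neighbour it was 67.6% and 23.8%, without one 60% and 14.7%. With 1 TSS it was 69.0% and 11.7%, with 2 it was 60% and 28.0%, and with 3 or more 60% and 51.6%. Only in genes with 3 or more starts did the others come near the RpL share, over 10 members. All RpL genes are at most 5 kb long, and 12.7% of other genes of that length were bound.

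Most summits of bound members had no CACTG core within 100 bp. It was present at 13 of 35 member summits (37.1%) and at 42.5% of 2018 other promoter summits. The DRE core was at 11 (31.4%, others 6.99%), the Myc E-box at 6 (17.1%, others 2.23%), Motif 1 at 5 (14.3%, others 1.59%) and GAGAGAG at 0 (others 8.92%). Since member summits lie nearer the start, their windows cover another part of the promoter. Among summits within 50 bp of any protein-coding start, a comparison added after these values were seen, the CACTG core was at 11 of 28 members (39.3%) and 48.2% of 363 others, the DRE core at 35.7% and 12.9%, the E-box at 17.9% and 1.65%, and Motif 1 at 14.3% and 6.06%. The DRE core, the E-box and Motif 1 were thus the more frequent at member summits also near the start, Motif 1 by a smaller margin than over all promoter summits, and the CACTG core was not. RpLP0-like is among these 28 through the start of 14-3-3zeta. Member summits with the core had a median signal of 448.1 (n = 13) and those without it 352.0 (n = 22), beside 327.3 and 318.8 at other promoter summits. In the sequences above, the nearest core is 6 bp from the summit in RpL7 and 19 bp from it in RpLP1. RpL7 has further cores at -48 bp and, past the printed bases, at 97 bp. RpL34b has its cores at -58 and -38 bp, negative being toward lower coordinates.

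Among other genes of ribosome production, the share bound differed between the lists. Of 24 genes of 60S assembly and the nucleolus, 3 were bound in the IDR list (12.5%, all genes 18.1%), namely eIF6 (signal 1800, -107 bp), Ns2 (1666, -152 bp) and Surf6 (294, -312 bp). None of these 3 summits was within 50 bp of the start. Of 6 genes of regulators of ribosomal protein transcription, 4 were bound (66.7%), namely Dref through the summit it shares with RpL13, Mnt (366, -143 bp), Max (210, -118 bp) and Trf2 (436, -35 bp). M1BP and Myc were in the pooled list (93.0 and 132.1) and outside the IDR list. M1BP nevertheless had signals of 363 in replicate 1 (rank 1366) and 188 in replicate 3 (rank 1098), with no region in replicate 2.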

How the data were processed

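ChIP-seq regions of 3 replicates were analysed. Per the file headers of the deposited descriptions, the authors called regions from each replicate's own alignment against 1 shared control, called a further list on the pooled replicates, and derived the IDR list from these. No aligner or caller is named in the sources used here. The deposited signal per region is treated as not scaled between lists. Per the labels, DNA was sonicated to 200 to 800 bp. Nothing in the labels says more of how the replicates were raised, so SDs measure the spread between these samples.

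Summits on dm6 were set against Ensembl release 115 starts on 6 arms. Offsets are to the nearest start, the strongest summit was used per gene, replicate summits were matched within 100 bp, and motifs were sought in Release 6 sequence on both strands. Genes named in the text are the 10 bound members of highest and 3 of lowest signal, the 5 unbound of highest pooled signal, those bound in all replicate lists only, the stalk genes and the paralogs. Other members and neighbouring genes were named after their values were seen. Members and lists were chosen with earlier results of these data known. The values of 1 member are not reported here by name. No test was made, since there is 1 group. Depth is unknown. Procedures were tested on simulated data. The dm3 lists, the control and the coverage tracks were not used here. Scripts ran in Python 3.11.15 with pandas 2.3.3, numpy 2.4.6, matplotlib 3.10.9 and scipy 1.17.1.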

Additional observations from a re-analysis of the deposited data

How the results depend on the processing

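Of 43 alternatives, 37 stayed within the set limits, 5 moved beyond them and 1 reversed sign. For counts the limit was a factor of 1.5, for other values a spread over replicates. Some alternatives could not differ, so the tally is no measure of robustness. The 35 strongest summits are distinct, all lay within 198 bp of a start, and the nearest at an unbound member was 2347 bp away. Leaving a replicate out of the match cannot lower the 22 matched summits. The count of 35 bound members was 35 with windows of 250 or 1000 bp, with the 5'-most start alone or with any overlap of the region, and 26 in the stronger part of the IDR list. It was 22 with summits matched in every replicate, and 22 to 27 with each replicate in turn not consulted for the match. The IDR list was not remade for this, so each replicate still shaped it. The mean of 34.3 members was 30.0 to 37.0 without each replicate. The 22 matched summits became 22 to 27, again with each replicate in turn not consulted for the match. The median offset of -10.0 bp changed sign to 3.00 bp when measured from the 5'-most start, which moves the start upstream in genes with several, and was -28.0 bp with summits of replicate 2 alone, for which the cause was not tested. The share of summits with the CACTG core, 37.1% within 100 bp, was 25.7% within 50 bp and 57.1% within 150 bp, windows of fewer and more bases. The share within 50 bp of a start, 77.1%, was 76.9 to 81.8% over summits matched with each replicate in turn not consulted. From the 5'-most start it was 68.6%. The alternatives for this share within 50 bp of a start were chosen after seeing the data. No paired analysis was possible because all replicates belong to 1 group.

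Depth of these lists is unknown, and a gene without a region was not detected at the length of the list. No untagged sample was analysed here, so signal that does not depend on the tagged protein was not measured. Several RpL genes share a summit with a neighbouring gene, and the summit does not assign it to either. Whole animals were used, so cell types cannot be told apart.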
